A study of Mus musculus with 4 samples.

Results

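The machinery of DNA replication was followed through 38 genes in mouse heart cells of 4 stages. They were taken by name from a list that was drawn up with earlier results of these data known, and all 38 were found among the 27998 genes of the deposited counts. Hearts of C57Bl6J mice without any genetic change or treatment were collected at embryonic day 12 (E12), at embryonic day 15 (E15), at postnatal day 2 (P2) and from adults of 8 weeks, and cells bearing the endothelial protein CD31 but not the leukocyte protein CD45 were sorted from them. Each stage gave 1 droplet library, made from pooled animals (37 and 48 embryos, 21 newborns and 6 adults), so no value below has a biological replicate and no p-value was computed. The embryonic hearts were digested with collagenase/dispase alone and their thawed cells passed through a dead cell removal kit, whereas P2 and adult hearts also received collagenase II and their thawed cells were sorted again for live cells. Red blood cells were lysed in the adult samples alone. Handling therefore cannot be told apart from the step from embryo to newborn, nor the lysis from the step from P2 to adult. Digestion was also longer at E15 than at E12, and only the E12 cells were called here, by a minimum number of counted RNA molecules. Neither can be told apart from the step from E12 to E15.

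A cell copies its genome once per division. Before S phase, Cdc6 and Cdt1 load the ring of Mcm proteins on replication origins, and the ring becomes an active helicase when Cdc45 and the GINS complex join it. DNA polymerases then extend new strands on the sliding clamp Pcna, while ribonucleotide reductase and its partner enzymes supply the building blocks. Many of these genes are switched on together by E2F factors as cells pass from G1 into S phase, and are low in resting cells. In the growing heart, coronary endothelial cells line the vessels of the muscle wall and endocardial cells line the chambers.

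The cells were placed in classes by UMIs (counted RNA molecules) of a few marker genes that are not replication genes. A cell was endocardial if Npr3 and Tmem108 together exceeded Fabp4, Cldn5 and Aplnr together. It was coronary if Fabp4, Cldn5 and Aplnr reached 2 UMIs and exceeded Npr3 and Tmem108. The artery rule asked for 3 UMIs over Cxcl12, Glul, Alpl and Nebl, the valve rule for 2 UMIs over Cldn11, Enpp2 and Aqp8, and cells without any UMI of Pecam1, Cdh5 and Egfl7 were called non-endothelial. The classes overlap. In the order E12, E15, P2, adult, which is kept wherever 4 values follow each other, there were 113, 1254, 4596 and 4077 coronary cells and 1716, 2115, 1082 and 75 endocardial cells. Levels are given as CPM, the UMIs of a gene per 1000000 UMIs of all the cells of the class summed together, with exact Poisson 95% intervals. These intervals, and those on ratios and shares, cover counting error only.

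The libraries held 5732, 6062, 5884 and 4242 cells with medians of 1241, 1013, 4531.5 and 1510 UMIs. The coronary and endocardial names were set beside marker sums, which are not independent of the rules. Fabp4, Cldn5 and Aplnr stand in the coronary list, Cldn5 in the endothelial list, and Npr3 and Tmem108 in the endocardial list. The sums below are therefore partly set by the rules. The sum of 8 endothelial markers was 2704 to 7714 CPM in coronary and 1670 to 5307 CPM in endocardial cells, and the coronary marker sum was 1741 to 28003 CPM in coronary cells, where the endocardial marker sum was 217 to 371 CPM. The lowest coronary marker sum was that of E12, where 59.3% of the coronary cells lay just inside the limit of the rule, against 1.78% at P2, and where droplets without a cell held these markers at 1250 CPM against 160 CPM over all cells. How far free RNA placed cells in the E12 coronary class was not tested. The artery rule did not hold at E12, where 0 of its 332 cells were coronary, 77.4% were non-endothelial by the rule and the smooth muscle and matrix genes Rgs5, Fbln5 and Eln stood among its leading genes. At E15, 59.4% of its 69 cells were non-endothelial. At P2, 95.5% of the 711 artery cells were coronary cells. The valve rule at P2 took 235 coronary and 145 endocardial cells among its 427, and their lymphatic markers reached 1895 CPM, so they are called valve-rule cells below. Among endocardial cells, 34.7% at E12 and 25.8% at E15 lacked any UMI of the 3 endothelial genes. Shallow cells meet the non-endothelial rule more often, and the part of depth in these non-endothelial shares was not tested. Of the endocardial cells, 63.9, 56.0, 17.0 and 22.7% lay just inside the limit of their rule, which asks for no minimum number of UMIs. How far this bears on the endocardial values across stages was not tested. RNA outside cells could be measured at E12, where droplets of at most 50 UMIs held the 38 genes at 1972 CPM (1863 to 2086), against 1969 CPM (1939 to 2000) over all cells. The part of this free RNA in the E12 level of each class was not tested. The droplets without cells of the other stages were not analysed here.

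Promoters of 32 of the 38 genes were at hand in RefSeq (GRCm38.p6), each as a window from 250 bases before to 50 bases after a listed start. E2F-type words (TTTCCCGC, TTTCGCGC, TTTGGCGC or TTTGCCGC, on either strand, overlaps counted) stood in 13 of the 32, or 40.6%, against 2.60% of all 27025 genes with a window and 4.61% of the 10107 other genes counted in coronary cells of P2 and adult. The CCAAT word (ATTGG on either strand) stood in 56.2% of the members and in 41.1% of all genes. The 4 stretches printed here show both kinds of member, from 200 to 21 bases before the start, with the E2F-type and CCAAT words in capitals. Mcm5 (chr8:75109309-75109488, plus strand) and Mcm6 (chr1:128359726-128359905, minus strand), parts of the helicase ring, carry overlapping E2F-type words. Rrm2 (chr12:24708054-24708233, plus strand), the S phase subunit of ribonucleotide reductase, and Slbp (chr5:33652595-33652774, minus strand), which binds histone messenger RNA, carry only CCAAT words here.
Mcm5: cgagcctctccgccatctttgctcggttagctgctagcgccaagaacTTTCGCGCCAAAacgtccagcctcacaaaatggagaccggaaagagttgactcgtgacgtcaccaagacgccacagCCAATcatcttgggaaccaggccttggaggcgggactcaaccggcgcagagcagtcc
Mcm6: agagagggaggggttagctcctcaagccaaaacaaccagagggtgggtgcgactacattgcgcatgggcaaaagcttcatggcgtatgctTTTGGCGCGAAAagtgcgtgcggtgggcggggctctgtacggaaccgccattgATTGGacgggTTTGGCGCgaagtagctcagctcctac
Rrm2: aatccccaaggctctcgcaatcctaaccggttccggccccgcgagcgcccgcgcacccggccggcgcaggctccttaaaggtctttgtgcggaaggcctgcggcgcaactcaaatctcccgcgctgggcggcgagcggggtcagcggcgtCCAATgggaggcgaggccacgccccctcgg
Slbp: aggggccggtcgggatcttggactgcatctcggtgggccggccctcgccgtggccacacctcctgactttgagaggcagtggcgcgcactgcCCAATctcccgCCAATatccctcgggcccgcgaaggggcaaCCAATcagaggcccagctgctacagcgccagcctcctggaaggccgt

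Replication transcripts were high in coronary cells up to P2 and low in the adult, and in endocardial cells they were lower at each later stage. The sum of the 38 genes was 2519 CPM (2323 to 2727), 1920 CPM (1854 to 1987), 2418 CPM (2398 to 2438) and 686 CPM (667 to 705) in coronary cells. In endocardial cells it was 1930 CPM (1876 to 1986), 1223 CPM (1180 to 1268), 912 CPM (886 to 939) and 489 CPM (398 to 593). The coronary course thus has its single large step after P2, while the endocardial values are lower at each stage than at the one before, the last of them resting on 102 UMIs in 75 cells. In such sums, fewer cells in S phase and less RNA of these genes per cell cannot be told apart. The shares of cells given further on do not separate them either, since a share also falls when every cell has less of this RNA. Over all cells of a library the sum was 1969, 1448, 2113 and 676 CPM, and the P2 and adult values follow the coronary cells because these made up most of those libraries.

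**Figure D1:**
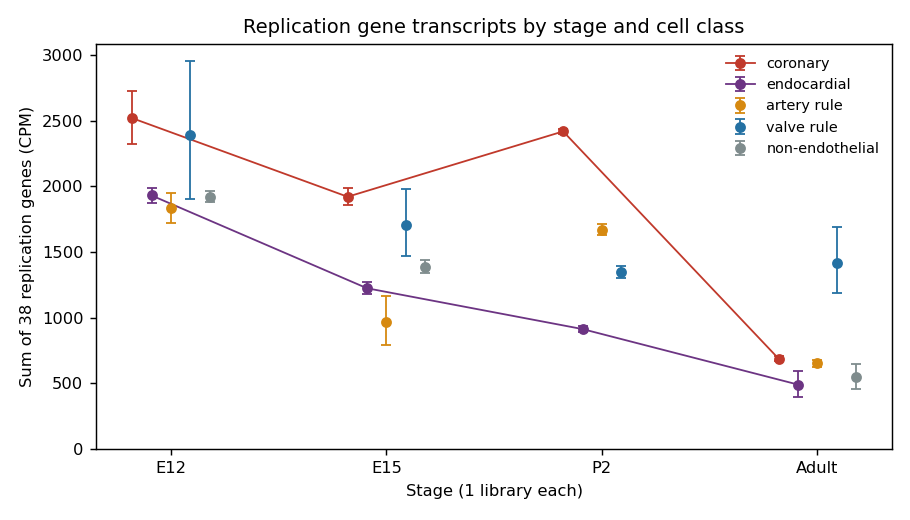
Summed CPM of the 38 replication genes (vertical axis) at each stage (horizontal axis) for cell classes of at least 20 cells, with coronary and endocardial cells joined by lines and exact Poisson 95% intervals as bars. Coronary cells lie at 2418 CPM at P2 and 686 CPM in the adult, and endocardial cells lie at 1930, 1223, 912 and 489 CPM from E12 to adult.

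Each of the 5 functional groups was lower in adult coronary cells than at P2. The 12 helicase and licensing genes summed to 461, 403, 531 and 154 CPM in coronary cells over the 4 stages, and the 10 genes for polymerases, clamp and ligase to 790, 639, 755 and 234 CPM. The 5 genes of nucleotide supply gave 692, 417, 562 and 101 CPM, and the 8 genes for chromatin, histone supply and repair gave 490, 395, 494 and 191 CPM. The 3 G1/S control genes (Ccne1, Ccne2 and E2f1) had the lowest adult value in proportion, with 86.4, 66.7, 76.8 and 5.70 CPM. In endocardial cells the 5 groups had 424, 646, 382, 397 and 81.3 CPM at E12 and 207, 274, 193, 218 and 20.5 CPM at P2.

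**Figure D2:**
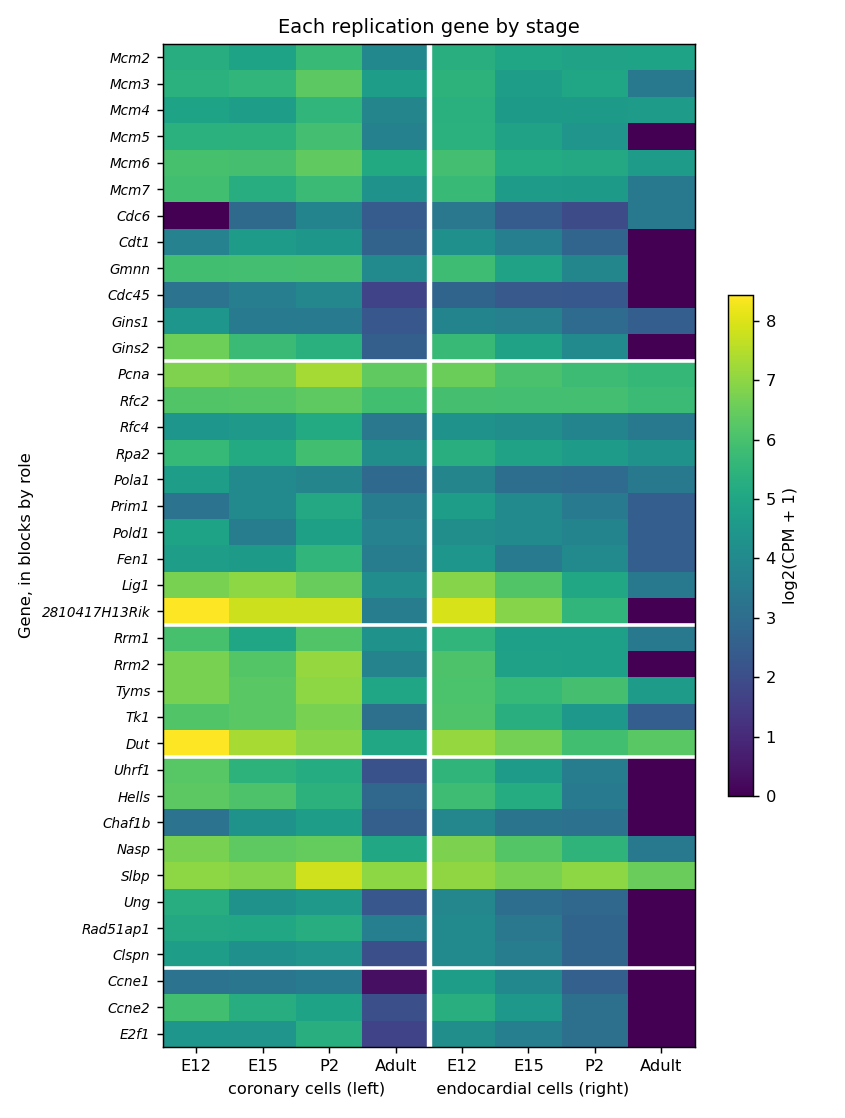
CPM of each of the 38 genes (rows, ordered by role) in coronary and endocardial cells at the 4 stages (columns), on a colour scale of log2(CPM + 1). Brighter cells are higher, most rows are darkest in the adult, and Slbp, Pcna and Rfc2 stand out in adult coronary cells with 126, 81.5 and 58.4 CPM.

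Of the 38 genes, 35 were at least 2-fold higher in coronary cells at P2 than in the adult, where 14.6% of all 13692 genes with at least 10 UMIs over both groups were, and all 38 were above 1. The median ratio of the 38 was 3.88 against 0.999 over all genes, and that of their sum was 3.52 (3.42 to 3.63). The 3 genes below 2-fold were Pcna with 1.90 (1.75 to 2.08), Slbp with 1.79 (1.66 to 1.92) and Rfc2, a subunit of the clamp loader, with 1.38 (1.24 to 1.54). At the other end, Ccne1, the cyclin that drives S phase entry, had a ratio of 36.2 (9.91 to 300) on 2 adult UMIs. Next came 2810417H13Rik (named Pclaf in newer annotation), a Pcna partner, with 20.7 (16.5 to 26.4) and E2f1 with 17.0 (10.4 to 29.9). The 13 members with an E2F-type word in the promoter window had a median of 3.93 (lowest 2.08, highest 20.7). The 19 without had a median of 3.85 (lowest 1.79, highest 36.2). A window without these exact words may still be bound by E2F factors, so a part of E2F control in the ratios was not tested.

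Among the helicase ring genes, Mcm6 had 61.7, 60.7, 81.8 and 33.8 CPM in coronary cells, and Mcm3 had 41.2, 45.8, 78.7 and 25.5 CPM. Mcm5 had 41.2, 42.3, 59.9 and 12.2 CPM, which gave the largest P2 to adult ratio of the ring, 4.89. Mcm2 had 37.0, 28.6, 51.8 and 14.5 CPM, Mcm4 had 28.8, 25.0, 46.2 and 13.4 CPM, and Mcm7 had 57.6, 36.9, 52.9 and 18.8 CPM. The ratios of these ring genes other than Mcm5 lay between 2.42 for Mcm6 and 3.58 for Mcm2. The GINS subunit Gins2 had 94.7, 52.4, 40.3 and 4.87 CPM, so it was highest at the first stage and 8.28-fold higher at P2 than in the adult. Its partner Gins1 stood at 20.6, 10.1, 10.2 and 3.90 CPM, a P2 to adult ratio of 2.63. Of the licensing factors, Cdc6 was not counted in the 113 E12 coronary cells and had 6.55, 12.9 and 4.45 CPM afterwards, and Cdt1 had 12.3, 23.8, 21.3 and 5.43 CPM. Geminin (Gmnn), the inhibitor of Cdt1, held at 57.6, 59.5 and 60.3 CPM up to P2 and was 15.4 CPM in the adult. Cdc45 was sparse, with 8.23, 11.3, 14.1 and 2.23 CPM.

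Of the genes that act at the fork, Pcna had 111, 98.8, 155 and 81.5 CPM in coronary cells. Its partner 2810417H13Rik had 346, 221, 219 and 10.6 CPM, so the adult value was 81.5 of 155 CPM for the clamp and 10.6 of 219 CPM for its partner when set against P2. Lig1, the ligase that joins Okazaki fragments, had 107, 126, 87.2 and 16.7 CPM. Fen1, which trims those fragments, had 24.7, 23.2, 45.6 and 10.6 CPM. Of the polymerase that primes new strands, Pola1 had 24.7, 15.5, 13.3 and 6.40 CPM and Prim1 had 8.23, 15.5, 33.5 and 10.6 CPM. Pold1, the catalytic subunit of polymerase delta, had 28.8, 10.7, 26.7 and 12.5 CPM. The clamp loader genes stood apart from each other, since Rfc4 had 20.6, 22.0, 34.7 and 9.32 CPM and Rfc2 had 70.0, 71.4, 80.6 and 58.4 CPM. Rpa2, which coats single-stranded DNA, had 49.4, 34.5, 58.5 and 17.0 CPM.

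In nucleotide supply the largest step after P2 was that of thymidine kinase Tk1, with 70.0, 77.4, 105 and 7.65 CPM in coronary cells and a P2 to adult ratio of 13.7 (10.5 to 18.3). Ribonucleotide reductase differed between its subunits: Rrm2 had 107, 70.8, 136 and 12.7 CPM, a P2 to adult ratio of 10.8 (8.74 to 13.4), and the large subunit Rrm1 had 61.7, 31.0, 70.6 and 19.2 CPM, a ratio of 3.68. Tyms, which makes thymidylate, had 107, 77.4, 127 and 29.9 CPM. Dut, which keeps uracil out of DNA, followed another course, with 346, 160, 123 and 31.9 CPM, highest in the few E12 coronary cells.

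Of the chromatin and repair genes, Uhrf1, which guides DNA methylation to new strands, had 74.1, 42.9, 36.5 and 3.34 CPM in coronary cells, and Hells, a remodeller of the same pathway, had 78.2, 66.1, 42.1 and 6.26 CPM. Both values were lower at each later stage, but not every step was clear of counting error. The E15 over E12 ratios were 0.578 (0.341 to 1.03) for Uhrf1 and 0.845 (0.516 to 1.46) for Hells. From E15 to P2, Uhrf1 had 0.852 (0.669 to 1.10) and Hells 0.637 (0.523 to 0.782). The histone chaperone gene Nasp had 107, 80.4, 85.3 and 32.3 CPM, with a P2 over E15 ratio of 1.06 (0.891 to 1.27). Chaf1b had 8.23, 19.0, 25.5 and 4.87 CPM, the first on 2 UMIs. Slbp had 128, 117, 225 and 126 CPM, about as much in the adult as in the embryo. Ung, which removes uracil from DNA, had 37.0, 19.0, 22.8 and 3.90 CPM. The genes of the replication checkpoint and of strand repair, Clspn and Rad51ap1, had 24.7, 17.9, 20.0 and 3.20 CPM and 32.9, 32.1, 37.3 and 11.4 CPM. Of the G1/S genes, Ccne2 had 57.6, 37.5, 28.9 and 3.20 CPM, Ccne1 had 8.23, 8.93, 10.1 and 0.278 CPM, and E2f1 had 20.6, 20.2, 37.9 and 2.23 CPM.

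Between E12 and E15 the coronary sum had a ratio of 0.762 (0.699 to 0.832, E15 over E12), and 3 members were at 0.5 or less where 7.62% of all 9196 genes were. These were Pold1 with 0.372 (0.148 to 1.05), Dut with 0.463 (0.361 to 0.599) and Gins1 with 0.492. Chaf1b was at 2 or more (background 16.8%, or 11.8% with genes without E12 UMIs set to the floor of 3 UMIs) with 2.31 (0.590 to 19.9). Cdc6 had 11 UMIs against 0, which at that floor is a ratio of 0.530, with an exact interval from 0.363 upward, and gives no direction. Cdt1 followed with 1.93 (0.614 to 9.74). The intervals of Pold1, Chaf1b and Cdt1 span 1, and the comparison rests on 612 member UMIs at E12. When the classes were called at a common depth of 500 UMIs per cell the ratio of the sums was 0.938, on 33 E12 coronary cells.

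Between E15 and P2 the sum of the 38 genes differed in opposite directions in the coronary and endocardial classes. It had a ratio of 1.26 (1.22 to 1.31, P2 over E15) in coronary and 0.746 (0.712 to 0.781) in endocardial cells, and 22 of the 38 genes were above 1 in the former and below 1 in the latter, 7 above in both, 9 below in both and 0 the other way round. Over the 11822 genes with enough UMIs in both comparisons these patterns made up 13.8, 53.9, 22.4 and 9.90%. In coronary cells 3 members were at 2 or more, where 20.8% of all 13251 genes were: Pold1 with 2.49 (1.57 to 4.24), Rrm1 with 2.28 (1.73 to 3.07) and Prim1 with 2.16 (1.46 to 3.33). None was at 0.5 or less, and the lowest were Dut with 0.766, Lig1 with 0.695 (0.603 to 0.804) and Hells with 0.637 (0.523 to 0.782). The coronary median was 1.34 against 1.26 over all genes, and without haemoglobin, mitochondrial and ribosomal protein genes in the total the coronary ratio was 1.05.

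In endocardial cells 7 members were at 0.5 or less at P2 against E15, where 7.24% of all 11918 genes were, and the median was 0.747 against 1.17 over all genes. The lowest were Hells with 0.286 (0.200 to 0.406), Ccne1 with 0.351 (0.203 to 0.600) and Ccne2 with 0.356. The highest were Fen1 with 1.47 (0.928 to 2.41), Tyms with 1.24 and Slbp with 1.20 (1.04 to 1.39). Hells had 36.4 CPM at E15 and 10.4 CPM at P2, 2810417H13Rik had 120 and 45.5 CPM, and Tyms had 49.1 and 60.6 CPM. The lowest ratios were thus those of a chromatin remodeller and of both E cyclins.

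Single endocardial levels show which genes carried these sums. The member with the most UMIs, 2810417H13Rik, had 240, 120 and 45.5 CPM at E12, E15 and P2 and no UMI in the adult, and Lig1 had 118, 69.5, 32.2 and 9.58 CPM. Geminin had 55.4, 27.8 and 13.7 CPM and Hells 55.4, 36.4 and 10.4 CPM, and neither had an adult UMI. A count of 0 in the adult cells reaches up to 17.7 CPM in its interval, above the P2 values of Geminin and Hells. Other members differed less between E12 and P2. Their adult values below rest on 11 UMIs for Rfc2, 19 for Slbp, 10 for Pcna, 6 for Mcm2 and 5 each for Tyms and Mcm6. Rfc2 had 61.4, 58.9, 59.8 and 52.7 CPM, Slbp had 130, 107, 128 and 91.0 CPM, and Tyms had 64.7, 49.1, 60.6 and 23.9 CPM. Of the ring genes Mcm6 had 59.0, 35.2, 33.4 and 23.9 CPM and Mcm2 had 38.4, 30.3, 28.4 and 28.7 CPM, and Pcna had 92.6, 63.4, 53.8 and 47.9 CPM. The clamp, its loader subunit Rfc2 and Slbp, which were the members closest to level between P2 and adult coronary cells, thus also had RNA in adult endocardial cells.

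From E12 to E15 all 38 genes had endocardial ratios below 1, in a comparison with the library whose free RNA held the 38 genes at the level of its cells. Their median was 0.609 against 0.996 over all genes, the sum had a ratio of 0.634 (0.605 to 0.663), and 4 members were at 0.5 or less where 6.62% of all 11498 genes were. These were Rrm2 with 0.408 (0.303 to 0.545), Mcm7 with 0.477 (0.344 to 0.656), Cdc6 with 0.484 and Fen1 with 0.496. Closest to 1 were Rfc2 with 0.958, Gins1 with 0.916 and Pold1 with 0.891. Rrm2 had 67.1 CPM at E12, 27.4 CPM at E15 and 25.9 CPM at P2 in endocardial cells, so it was level between the last of these stages, whereas Uhrf1 had 44.5, 24.5 and 10.6 CPM. In the adult, 16 members had no UMI in the 75 endocardial cells. The P2 to adult ratio of the sum was 1.87 (1.53 to 2.29) and 26 members were at 2 or more where 23.1% of all 11364 genes were, but with genes without adult UMIs set to a floor of 3 UMIs in the adult cells these became 11 members and 10.5% of all genes, and the median of 3.25 became 1.13. At that floor 2810417H13Rik stood highest of the members without adult UMIs, with 3.17, and its exact interval began at 2.56. The lowest ratios were Cdc6 with 0.302 (0.0703 to 2.72), Pola1 with 0.705 and Dut with 0.758.

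Within a stage, which holds the library fixed, coronary cells had more replication RNA than endocardial cells, and the gap was widest at P2. The ratio of the sums (coronary over endocardial) was 1.30 (1.20 to 1.42), 1.57 (1.49 to 1.65), 2.65 (2.57 to 2.73) and 1.40 (1.15 to 1.73) in stage order. At E12 the members at 2 or more were 3, where 7.35% of all 10471 genes were, and they were Ung with 2.62 (1.11 to 5.56), Dut with 2.55 (1.99 to 3.25) and Rad51ap1 with 2.14. Lowest at E12 were Prim1 with 0.334, Ccne1 with 0.323 and Cdc6, with 0 against 23 UMIs. At E15 there were 10, where 6.72% of all 11044 genes were, led by Rad51ap1 with 3.42 (2.06 to 5.84), Cdc45 with 2.77 and Ung with 2.59, and the lowest were Gins1 with 0.854, Pold1 with 0.708 and Ccne1 with 0.624 (0.317 to 1.17).

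At P2, 31 of the 38 genes were at least 2-fold higher in coronary cells, where 12.3% of all 13477 genes were, all 38 were above 1, and the median was 2.80 against 0.941 over all genes. The strand repair gene Rad51ap1 led with 6.66 (4.61 to 10.0), at 37.3 against 5.60 CPM. Rrm2 followed with 5.27, at 136 against 25.9 CPM, and then E2f1 with 4.90, at 37.9 against 7.72 CPM. The smallest differences were those of Slbp with 1.75, Gins1 with 1.52 and Rfc2 with 1.35. In the adult 21 of 37 counted members were at 2 or more (background 26.1%), but at the floor of 3 UMIs these became 6 members and 11.1% of all genes, and the median of 2.21 became 0.852. Lowest there were Mcm2 with 0.503, Cdc6 with 0.465 and Dut with 0.416 (0.251 to 0.740), at 31.9 CPM in coronary and 76.6 CPM in endocardial cells.

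**Figure D3:**
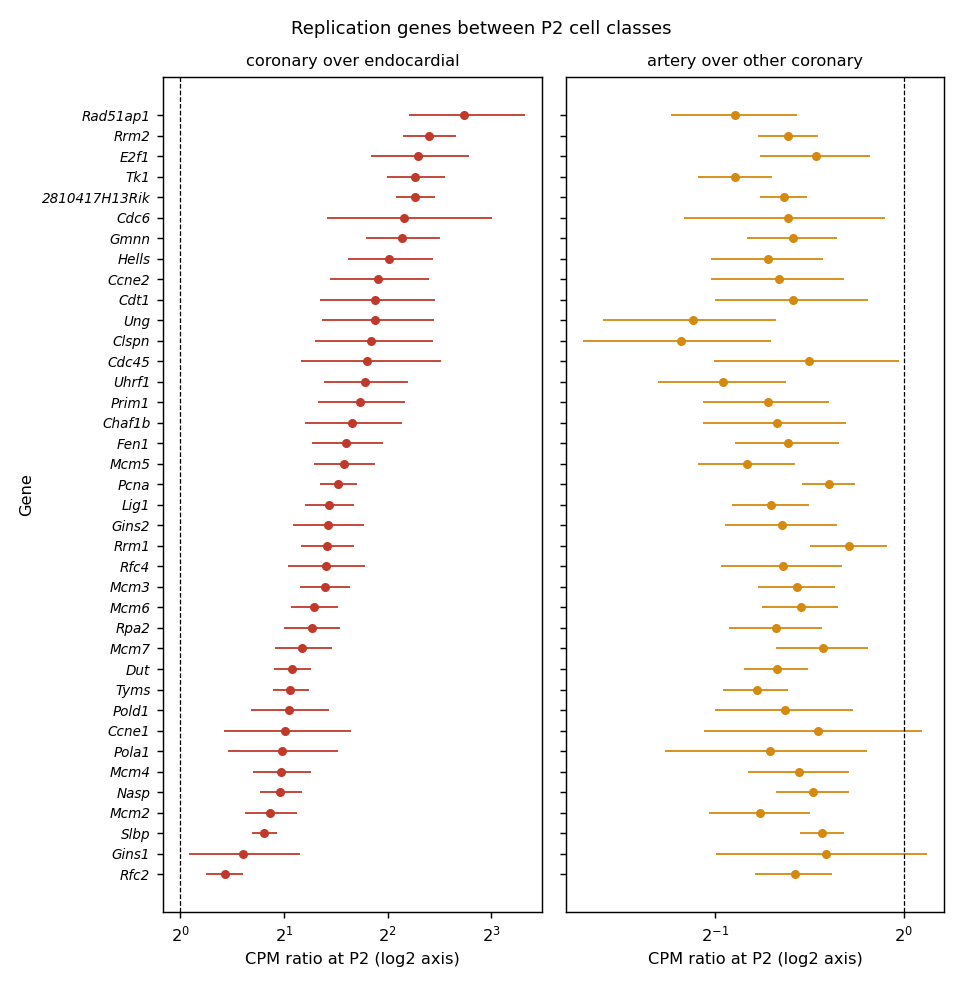
Ratios of the 38 genes at P2 on a log axis, coronary over endocardial cells and artery-rule over other coronary cells, with exact 95% intervals from counting error. All coronary over endocardial ratios lie above 1, up to 6.66 for Rad51ap1, and all artery ratios lie below 1, down to 0.440 for Clspn.

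Coronary cells were not uniform at P2. Cells that met the artery rule had 1669 CPM (1629 to 1710) of the 38 genes, other coronary cells had 2550 CPM, and the ratio was 0.655 (0.638 to 0.672). All 38 genes were below 1, with a median of 0.645 against 0.984 over all genes, while just 2 were at 0.5 or less, where 7.17% of all 13144 genes were. The lowest were Clspn with 0.440 (0.307 to 0.614), Ung with 0.460 (0.331 to 0.625) and Uhrf1 with 0.515, and the highest were Rrm1 with 0.818, Pcna with 0.759 and Gins1 with 0.751. With classes called at 500 UMIs per cell, which leaves the artery cells of highest marker level, the ratio was 0.297. In the adult the artery cells had 650 CPM (625 to 676) against 733 CPM in other coronary cells, a ratio of 0.887 (0.839 to 0.938), and 5 members were at 0.5 or less, where 5.02% of all genes were. There the extremes were Gins1 with 1.63 (0.714 to 3.96), Cdc45 with 1.30 and Prim1 with 1.24 on the high side, and Cdt1 with 0.356, Cdc6 with 0.355 and Clspn with 0.320 (0.103 to 0.851) on the low side. Clspn was thus among the lowest at both stages. At E15 the ratio of 0.498 (0.406 to 0.605) rests on 69 artery-rule cells that were mostly not endothelial by the rule, with 12 members at 0. With classes called at 500 UMIs it was 0.152, but just 8 artery-rule cells were then left, so it gives no firm value.

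Valve-rule cells at P2 had 1344 CPM of the 38 genes, 1.46 times (1.39 to 1.53) the level of other endocardial cells. All 38 were above 1, 21 of them with their interval, and 8 were at 2 or more, where 7.03% of all genes were. The median was 1.55 against 1.02 over all genes. The highest were Cdc6 with 2.43 (1.13 to 5.40), 2810417H13Rik with 2.34 (1.95 to 2.82) and Hells with 2.28 (1.53 to 3.41), and the lowest were Rfc2 with 1.13, Slbp with 1.11 and Mcm3 with 1.01. Since 55.0% of these cells were coronary by the rule, the part of those cells in this difference was not tested. At E15 the ratio was 1.39 (1.19 to 1.62) on 65 cells, of which 13 were coronary and 10 endocardial by the rules. Gmnn was highest there at 3.86 (1.84 to 7.36). With classes called at 500 UMIs the E15 ratio was 1.06, on 14 valve-rule cells. In the adult 22 valve-rule cells, 15 of them coronary and 5 endocardial by the rules, had 1419 CPM (1184 to 1686) on 129 member UMIs. Thinned to 500 UMIs per cell they held 10 member UMIs, 70.0% of them in the top 10% of cells, so a few cells weigh heavily. The non-endothelial cells of the embryonic libraries, whose erythroid markers summed to 11783 CPM at E12 and 2680 CPM at E15, had nearly the level of the endothelial ones, with ratios between 0.921 and 0.980 at E12 and between 0.903 and 0.985 at E15 as intervals.

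Sums do not say how many cells carry the transcripts, so each cell was thinned to 500 UMIs and those with at least 2 UMIs of the 38 genes were counted. Such a share also falls when every cell has less of this RNA, so it is not a count of cells in S phase. In coronary cells the share was 26.5% (18.7 to 35.7), 22.3% (20.0 to 24.8), 21.7% (20.5 to 22.9) and 4.17% (3.58 to 4.83). In endocardial cells it was 20.4% (18.5 to 22.4), 10.5% (9.17 to 11.9), 4.62% (3.45 to 6.05) and 1.33% (0.0338 to 7.21). At this depth the coronary shares of the first 3 stages overlap in their intervals and the adult lies apart, while the endocardial shares of E12, E15 and P2 do not overlap. At 800 UMIs the coronary shares were 48.6% (38.8 to 58.5), 35.2% (32.1 to 38.4), 30.0% (28.7 to 31.4) and 8.80% (7.90 to 9.77), and their intervals did not overlap. That depth left out 6, 328, 0 and 451 coronary cells, the shallower ones, and the part of this in the shares was not tested. At P2 the artery cells had 12.1% (9.79 to 14.7) and the other coronary cells 23.3%. Before thinning the coronary shares were 74.3, 43.9, 76.5 and 25.3% and the endocardial ones ran from 23.7% at E15 to 66.7% at P2, at median depths of 1997, 1170, 4562 and 1485 UMIs in coronary and 1276, 1003, 4532 and 2609 UMIs in endocardial cells. No class of these libraries is known to lack replication RNA, so a share set by free RNA alone could not be read off, and at E12 the non-endothelial cells had 20.7%.

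**Figure D4:**
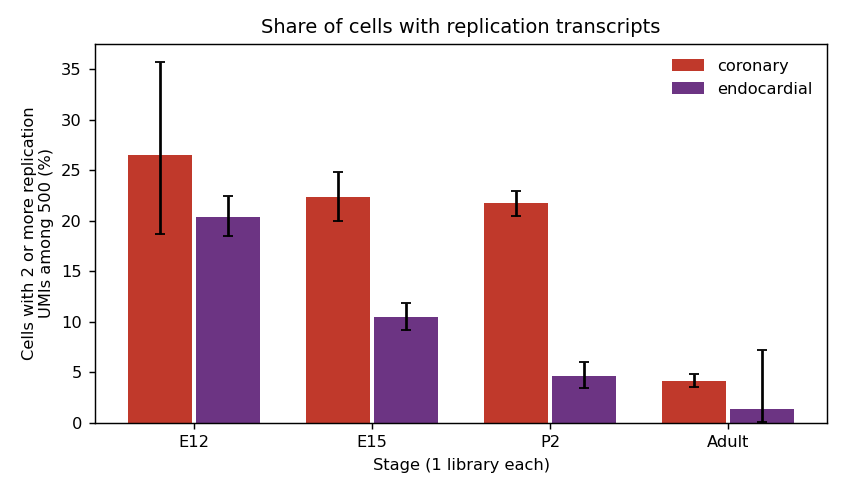
Percentage of cells with at least 2 UMIs of the 38 genes among 500 UMIs (vertical axis) by stage (horizontal axis) in coronary and endocardial cells, with exact binomial 95% intervals. Coronary cells hold 21.7% at P2 and 4.17% in the adult, and endocardial cells hold 20.4% at E12 and 4.62% at P2.

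To set the 38 genes against other genes of division, cells were split by 30 mitosis genes, none of them a member, at 2 or more UMIs among 500. Both sets are counted in the same cells, so this readout is not independent. Cells that passed are called cells with mitosis RNA below. The rest, called cells without it, held fewer than 2 such UMIs among 500 and need not lack mitosis RNA. At P2, 681 of 4596 coronary cells (14.8%) passed, and they had 4969 CPM of the 38 genes against 1774 CPM in the rest, a ratio of 2.80 (2.76 to 2.85). They held 41.4% of all coronary member UMIs, and their median depth was 6638 UMIs against 4342. In the adult, 40 of 4077 coronary cells (0.981%) passed, with 4577 against 613 CPM, a ratio of 7.46 (6.84 to 8.13), and these few cells held 12.2% of the member UMIs. Between P2 and the adult, then, cells that passed had 4969 and 4577 CPM, the rest had 1774 and 613 CPM, and the share that passed was 14.8% and 0.981%. The mitosis genes summed to 2334 CPM in P2 and 277 CPM in adult coronary cells. How many cells with some mitosis RNA were left among the rest at each stage was not tested. Cells with members and mitosis RNA were also the deeper ones in the adult, with medians of 2298 and 1483 UMIs, and the part of depth was not tested.

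Endocardial cells showed the same split up to P2. In the adult 1 of 75 endocardial cells passed, with 2 member UMIs, and the ratio of 0.561 (0.0670 to 2.08) gives no direction. At P2, 39 of 1082 (3.60%) passed, with 3767 against 774 CPM, a ratio of 4.87 (4.52 to 5.23), and at E15, 175 of 2015 (8.68%) passed with 2855 against 1008 CPM. At E15, 274 of 1188 coronary cells (23.1%) passed with 2715 against 1648 CPM, a ratio of 1.65 (1.53 to 1.77). At E12 the ratio was 1.02 (0.850 to 1.23) in coronary cells, where 27 of 113 passed. In endocardial cells of E12 it was 1.63 (1.53 to 1.74), close to that of E15 coronary cells. E12 droplets without a cell held the mitosis genes at 2045 CPM, against 2058 CPM in cells. The part of free RNA in the E12 split was not tested. Among P2 artery cells 60 of 711 (8.44%) passed and had 5334 against 1134 CPM.

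The members differed in how far their level went with mitosis RNA. In P2 coronary cells the highest ratios between cells with and without it were those of 2810417H13Rik with 8.36 (738 against 88.3 CPM), Tk1 with 7.92 (348 against 43.9 CPM) and Rrm2 with 7.65 (445 against 58.2 CPM). The helicase ring genes had lower ratios, with 1.22 for Mcm2, 1.27 for Mcm4, 1.33 for Mcm6, 1.35 for Mcm3, 1.69 (1.49 to 1.91) for Mcm7 and 1.73 (1.54 to 1.94) for Mcm5, and E2f1 had 1.24 (1.06 to 1.45). Ung alone was lower in the cells with mitosis RNA, with 62 UMIs against 476 and a ratio of CPM of 0.516 (0.389 to 0.673). At E15 it had 4 against 28 UMIs in coronary cells, a ratio of 0.391 (0.0995 to 1.12) that gives no clear direction. In P2 endocardial cells Ung was instead higher in the cells with mitosis RNA, with 3.83 (1.15 to 10.1) on 5 against 27 UMIs. In E15 endocardial cells it had 0.984 (0.109 to 4.23) on 2 against 15 UMIs, which gives no direction.

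This order of members was similar in other cells. Over the 37 or 38 genes with a value, the log2 ratios of P2 coronary cells correlated with those of E15 coronary cells (r = 0.714, rho = 0.759), of E15 endocardial cells (r = 0.772, rho = 0.776), of P2 endocardial cells (r = 0.789, rho = 0.809) and of adult coronary cells (r = 0.668, rho = 0.536). These are descriptions across genes, which share their cells and libraries. In P2 endocardial cells the top members were Clspn with 29.3, Tk1 with 27.0 and 2810417H13Rik with 26.7, and the lowest were Cdc6, with 0 of its 15 UMIs in the cells with mitosis RNA, and Mcm2 with 0.880 (0.318 to 1.96). In adult coronary cells Tk1 had a ratio of 157 (83.8 to 312), since 41 of its 55 UMIs lay in the 40 mitosis-positive cells, and Rrm2 had 134 with 65 of 91 UMIs there. The lowest, Cdc6 and Mcm4 with 1.73 each, Pold1 with 1.85 and Gins1 with 1.98, rest on 1 to 3 UMIs in those cells. Next came Mcm6 and Rfc2 with 2.54 each, with 11 of 243 and 19 of 420 UMIs there.

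**Figure D5:**
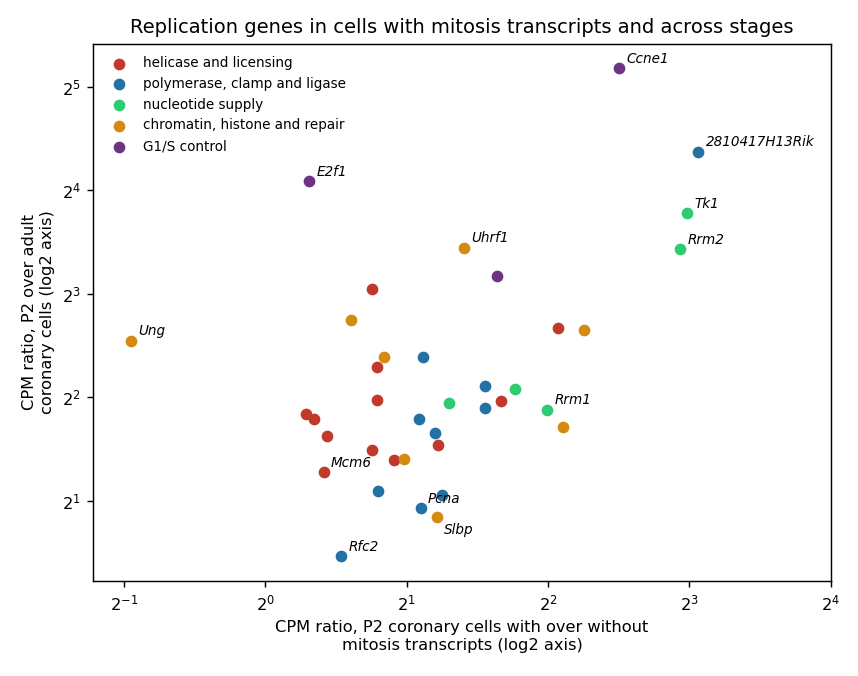
Each point is 1 of the 38 genes, with the ratio of CPM between P2 coronary cells with and without mitosis UMIs on the horizontal axis and the coronary P2 over adult ratio on the vertical axis, both log. The genes 2810417H13Rik, Tk1 and Rrm2 lie high on both axes, and Ung lies at 0.516 on the horizontal axis.

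The mitosis split at P2 and the P2 to adult ratio both use the P2 coronary cells, so they are set side by side only. Over the 38 genes the log2 ratios of the 2 had r = 0.456 and rho = 0.356. Tk1, Rrm2 and 2810417H13Rik were high on both. E2f1 was not, with a split ratio of 1.24 and a P2 to adult ratio of 17.0, and Uhrf1 had 2.65 and 10.9 (7.30 to 17.2).

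Other genes of the same pathway, taken from fixed lists, were also compared between P2 and adult coronary cells, and their sums differed less than the 3.52-fold of the members. Of 49 further replication genes, 31 were at 2 or more, where 14.6% of all genes were, and 1 was at 0.5 or less. Their median was 2.39 and their sums were 1734 and 1087 CPM, a ratio of 1.60 (1.56 to 1.64). Tipin, a fork protection factor, had 160 against 43.4 CPM (3.68), but its partner Timeless had 28.6 against 61.9 CPM (0.463). Mcm10 and Orc1 had ratios of 32.2 (5.66 to 1285) and 14.0 (2.39 to 564) on 1 adult UMI each, while Tonsl with 0.842 and Pola2 with 0.677 were not higher at P2. Of 15 counted genes for replication stress and repair 10 were at 2 or more, against the same 14.6% of all genes. Their median was 5.27, above that of the members, and the ratio of their sums was 2.06 (1.90 to 2.23). Fancd2 with 22.2 (3.86 to 888) and Fanci with 13.4 (2.28 to 540), both of the Fanconi pathway, each had 1 adult UMI. Usp1 had 1.80, and Atr and Xrcc2 were level with 1.00 and 1.01. Of 20 genes of nucleotide supply beyond the members 5 were at 2 or more, where 14.6% of all genes were, with a median of 1.61 and a ratio of the sums of 1.57 (1.52 to 1.62). Dctd, which supplies a precursor of thymidylate, had 6.59. The genes with the most UMIs were Impdh2 with 1.87 and Nme1 with 1.75, and the lowest were Tk2, the mitochondrial thymidine kinase, with 0.544, and Samhd1, which degrades deoxynucleotides, with 28.1 against 76.8 CPM (0.366).

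The mitosis list gave the widest difference, with 30 of 30 genes at 2 or more between P2 and adult coronary cells, where 14.6% of all genes were. Its median was 9.54 and its sums were 2334 and 277 CPM, a ratio of 8.42 (8.06 to 8.81). Its extremes were Ccnb1 with 21.9, Bub1 with 17.1, Mki67 with 5.21 and Smc4 with 3.56, and Top2a and Cks2 lay at 9.66 and 9.43. The sum of this list in coronary cells was 2214, 2286, 2334 and 277 CPM over the 4 stages, nearly level up to P2, and in endocardial cells it was 1962, 1299, 797 and 402 CPM. The replication sum thus kept 686 of 2418 CPM in adult coronary cells, where the mitosis sum kept 277 of 2334 CPM.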

How the data were processed

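Droplet 3' libraries were made by the authors from sorted CD31+/CD45- cells of 4 stages. The deposited values are whole counts of UMIs per gene and barcode without normalization, for 27998 genes. The submitters' processing notes name Cell Ranger 2.2 and the build mm10. The E15, P2 and adult files hold called cells. The E12 file holds all barcodes, of which those with at least 452 UMIs were kept, holding 88.7% of its UMIs. Cells totalled 8122358, 7079759, 29645059 and 7650091 UMIs in stage order. Any 2 libraries shared 25 to 60 cell barcodes, where 33.0 to 48.4 were expected by chance from 737280.

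UMIs were summed per class. Levels carry exact Poisson, ratios exact conditional binomial and shares exact binomial 95% intervals, and genes with at least 10 UMIs over both groups were counted as past 2-fold or not. A group without UMIs was given a floor of 3 UMIs, a set value that differs from the exact limit. For shares, cells were thinned to 500 UMIs, which left out 83 cells at E12 and 364 at E15. Doublets were scored per library by comparison with simulated doublets, at 0.8% expected per 1000 barcodes. Scores over 0.15 were held by 5.58, 7.89, 3.96 and 2.59% of the cells and by 43.8, 45.2, 51.3 and 20.9% of the simulated doublets, so many doublets cannot be seen. Doublets were kept, and left out as an alternative. The members and all gene lists were chosen with earlier results of these data known. For each comparison the 3 members with the highest and the 3 with the lowest ratio were named, and from each further list the 2 genes with the most UMIs and the 2 with the highest and lowest coronary P2 over adult ratio. Some genes that this rule names are not reported here. Members with several listed starts (4 genes) were counted as holding a promoter word if any window did. Some listed starts lie downstream of the gene start in another annotation. Other scalings, depths, class rules and filters were tried as alternatives. The interval and thinning code was tested on simulated data. Python 3.11.15, NumPy 2.4.6, SciPy 1.17.1, pandas 2.3.3, scikit-learn 1.9.0 and matplotlib 3.10.9 were used.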

Additional observations from a re-analysis of the deposited data

Results flagged for a closer look

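The ratio of the replication sum between P2 and E15 lay on opposite sides of 1 in the 2 main classes, at 1.26 in coronary and 0.746 in endocardial cells. With 1 library per stage this difference was not tested. The coronary ratio was 1.05 without haemoglobin, mitochondrial and ribosomal protein genes in the total, and the endocardial ratio was then 0.643.

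Droplets without a cell in the E12 library, 155236 barcodes with 619013 UMIs, held the 38 genes at 1972 CPM, and the ratio of cells to these droplets was 0.998 (0.942 to 1.06). The highest members were 2810417H13Rik with a ratio of 1.81 (1.47 to 2.26), Rrm2 with 1.51 (1.05 to 2.26) and Lig1 with 1.38 (1.04 to 1.88). The lowest were Pold1 with 0.378 (0.242 to 0.613), Rpa2 with 0.480 (0.355 to 0.661) and Mcm3 with 0.635 (0.455 to 0.910). The mitosis list had 2045 CPM in these droplets and 2058 CPM in cells, the endothelial markers had 2300 and 1196 CPM, and the coronary markers had 1250 and 160 CPM.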

How the results depend on the processing

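Of 172 values recomputed under an alternative, 125 moved by less than their counting interval, 47 moved by more and 0 changed side. The 172 include shares of cells, which have no side to change. They do not include the floor of 3 UMIs, under which the median member ratio of adult coronary over endocardial cells went from 2.21 to 0.852. All ratios below are those of the replication sum. Under the study's limits on UMIs, genes and mitochondrial share, P2 over adult was 3.79 in coronary cells, E15 over E12 was 0.589 in endocardial cells, coronary over endocardial was 1.67 (E15), 2.79 (P2) and 1.15 (adult), and artery over other coronary was 0.616 at P2. Without doublet scores over 0.15, P2 over E15 was 0.696 in endocardial cells and coronary over endocardial was 2.88 at P2. With every cell weighted alike, coronary P2 over E15 was 1.14 and P2 over adult 3.29, endocardial E15 over E12 was 0.596, coronary over endocardial was 1.69 at E15 and artery over other coronary was 0.597 at P2. With classes called at 500 UMIs, coronary E15 over E12 was 0.938 and P2 over adult 3.71, endocardial E15 over E12 was 0.604, P2 over E15 0.861 and P2 over adult 2.54. This setting left 33 E12 coronary, 8 E15 artery-rule, 14 E15 valve-rule and 39 adult endocardial cells. In the same setting coronary over endocardial was 1.89 at E15 and 1.87 in the adult, artery over other coronary was 0.152 at E15 and 0.297 at P2, valve over other endocardial was 1.06 at E15, and the shares of cells with at least 2 member UMIs were 17.4% (E12 endocardial), 23.2% (P2 coronary) and 0% (adult endocardial). With classes that exclude each other, coronary P2 over E15 was 1.33 and P2 over adult 3.67, coronary over endocardial was 2.81 and artery over other coronary 0.638 at P2, and the P2 coronary share was 24.0%. Without 2810417H13Rik, the member with the most UMIs, coronary P2 over adult was 3.25, endocardial P2 over E15 was 0.786, coronary over endocardial at P2 was 2.54, and the shares were 17.8% (E12 endocardial) and 19.9% (E15 coronary). Without haemoglobin, mitochondrial and ribosomal protein genes in the total, P2 over E15 was 1.05 in coronary and 0.643 in endocardial cells and coronary P2 over adult was 3.66. Thinning to 800 UMIs raises shares by construction and leaves out more of the shallow cells. The shares were then 48.6, 35.2, 30.0 and 8.80% in coronary cells and 34.4, 17.6 and 11.7% in endocardial cells of E12, E15 and P2. The intervals of the coronary shares of E12, E15 and P2, which overlap at 500 UMIs, then did not. With artery cells taken only within the coronary class, a setting chosen after seeing the data, artery over other coronary was 0.672 at P2. Leaving out coronary cells with at least 2 lymphatic UMIs, also chosen after seeing the data, moved 0 of 12 values. Counting genes without UMIs in the lower group at the floor of 3 UMIs, chosen after seeing the data, left 11 of 26 endocardial members at 2 or more between P2 and adult and 6 of 21 between adult coronary and endocardial cells. A floor of 900 UMIs at E12 and a minimum of 20 UMIs moved 0 of their 5 and 2 values. Except where a setting changes the cells or genes counted by its own construction, the cause was not tested.

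No paired analysis was possible because each stage has 1 library and the libraries share only the number 1. The 113 E12 coronary and 75 adult endocardial cells limit all ratios that use them, and adult endocardial cells with 102 member UMIs leave most single members at or near 0. The coronary, endocardial, artery and valve rules count few UMIs, so a shallow cell meets them less often. A shallow cell meets the non-endothelial rule, which asks for no UMI, more often. At 500 UMIs per cell that rule took 4098 cells at E12 and 1459 at P2, against 2995 and 13 at full depth.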

Other observations

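Inhibitors of cyclin-dependent kinases had levels of their own in both classes. Cdkn1c (p57) was the main inhibitor transcript of endocardial cells, with 2802, 2500, 1466 and 307 CPM from E12 to adult, against 407, 429, 376 and 517 CPM in coronary cells. Cdkn1a (p21) in coronary cells had 16.5, 33.3, 145 and 737 CPM, a P2 over adult ratio of 0.197, and 10.9, 14.3, 40.3 and 81.4 CPM in endocardial cells. At P2 it had 179 CPM in artery cells. Immediate-early genes, which cell isolation can switch on, moved with it in coronary cells, where they summed to 453, 810, 4481 and 6154 CPM, and their part in the Cdkn1a values was not tested. Cdkn1b (p27) had 24.7, 36.3, 53.6 and 72.3 CPM in coronary cells. Of the 7 inhibitors, 2 were at least 2-fold higher in coronary cells at P2 than in the adult, where 14.6% of all genes were. These were Cdkn2c with 2.87 and Cdkn2b with 2.09 (0.990 to 5.08), the latter on 8 adult UMIs. Cdkn1a alone was at 0.5 or less.

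Of 22 other G1/S control genes, 11 were at 2 or more between P2 and adult coronary cells, where 14.6% of all genes were. Their median was 1.82 against 0.999 over all genes. E2f8 had 11.2 on 5 adult UMIs, Tfdp1, the partner of E2F factors, had 8.21 (1.35 to 336) on 1 adult UMI against 27 at P2, and Cdk4 had 2.73, at 341 against 125 CPM, while Ccnd2 had 0.657 and Rbl2 had 0.567. Ccnd1 had 115, 174, 349 and 265 CPM in coronary cells and 131, 83.8, 37.1 and 115 CPM in endocardial cells, so adult coronary cells kept this G1 cyclin at a level where Ccne1 had 2 UMIs. Mki67, a marker of cycling cells, had 45.3, 48.8, 40.6 and 7.79 CPM in coronary cells and 50.1, 21.7, 13.5 and 0 CPM in endocardial cells.

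Within P2, 28 of 30 mitosis genes were at least 2-fold higher in coronary than in endocardial cells, where 12.3% of all genes were, with a median of 3.45. Of 49 further replication genes 24 were, with a median of 1.98, as were 8 of 15 for stress and repair with 2.35 and 8 of 22 for G1/S control with 1.41. For nucleotide supply the 3 of 20 genes, with a median of 1.46, lay near that share. Artery cells had 1507 CPM of the mitosis list and other coronary cells 2488 CPM, and valve-rule cells had 1383 CPM against 670 CPM in other endocardial cells.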
